A study of Mus musculus with 3 samples.

Results

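The cells described here are DN2b-like thymocytes, double negative cells that held transcripts of a progenitor gene, Cpa3, together with transcripts of the genes for T cell receptor rearrangement or for the pre-TCR. They were chosen on their own counts. A cell was a member when it held at least 1 unique molecular identifier (UMI) of Il2ra, at least 1 of Cpa3 and at least 1 of Rag1, Rag2 or Ptcra, and none of Mki67, Top2a, Cd34, Apoe or Trac. The cell also had to lie within limits of 500 to 5000 genes and at most 7% of its counts from mitochondrial genes. There were 507 members among the 21879 cells within these limits, or 2.32%. The 10 genes of the rule are described and were not tested, and the name DN2b-like stands for the rule and not for a sort.

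Each of the 3 libraries (runs) was made from the pooled thymi of 4 C57BL/6 mice at 6 weeks of age, with no transgene or treatment named, from which cells bearing CD4 and CD8 had been removed with beads before the sort. The first run held total double negative (DN) and TCRγδ+ thymocytes. The second held DN1 and DN2 thymocytes. The third held DN1 and DN2 cells, DN3 cells and TCRγδ+ cells, which were sorted apart and then mixed. No sort was made again, so the runs are not replicates of each other, and every p-value below measures only the spread between these libraries. The counts summed to between 39947415 and 98533329 UMIs per run. Of the cell barcodes, 72 were found in both the first and the second run and 3 in both the first and the third, but none of them marked a member in both runs.

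Double negative thymocytes are staged by CD44 and by CD25, which Il2ra encodes. At the DN2 stage, progenitors have CD44, KIT and CD25 on the surface and can still give rise to some other lineages, and in the DN2b part of this stage commitment to the T lineage is completed. At DN3, RAG1 and RAG2 cut the receptor genes, and a rearranged TCRβ chain pairs with the invariant pre-TCRα chain encoded by Ptcra and with CD3 to form the pre-TCR. NOTCH1 signaling drives these steps. Cpa3 encodes a carboxypeptidase known best from mast cells, and its transcript is also known from early thymocytes.

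Another 2 populations chosen with the same limits and the same 5 excluded genes were set beside the members. The first were Il2ra+ Cpa3+ cells without a UMI of Rag1, Rag2 or Ptcra, called here Rag- and Ptcra-negative cells, of which there were 1123. The second were Il2ra+ cells with Rag1, Rag2 or Ptcra and without Cpa3, called Cpa3-negative cells, of which there were 1794. The members numbered 90, 255 and 162 from the first to the third run, the Rag- and Ptcra-negative cells 180, 722 and 221, and the Cpa3-negative cells 613, 495 and 686. As the share of all Il2ra+ Cpa3+ cells that passed the exclusions, members made up 33.3% (95% exact interval 27.7 to 39.3), 26.1% (23.4 to 29.0) and 42.3% (37.3 to 47.4) from the first to the third run. These shares move with the sort and with depth, and are given side by side without a test. Members in the third run had a median of 8563 UMIs, against 3946.5 in the first and 5430 in the second.

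The exclusions shaped the population. Without them, 1719 cells held Il2ra, Cpa3 and Rag1, Rag2 or Ptcra, and of the 1212 that were left out, 849 were left out by the proliferation genes Mki67 or Top2a alone. Cd34, which marks the earliest progenitors, alone left out 31, and Apoe and Trac alone left out 26 each. A further 2 cells of the third run met the rule but had too many mitochondrial counts.

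The upstream sequences of 4 of the genes are shown because the 4 genes mark the sides between which the members lie. Ptcra and Cpa3 are in the rule. Cd3d rose and Cst7 fell from Rag- and Ptcra-negative cells to members, as given below. The genes were picked after their values had been seen. Each sequence is the 250 bases before the RefSeq start, 5′ to 3′ on the strand of the gene, in GRCm38.p6, with capitals for every E-box (CANNTG, the letters that E proteins bind). They lie at chr17:46763713-46763962 (minus strand) for Ptcra, chr3:20242182-20242431 (minus) for Cpa3, chr9:44981536-44981785 (plus) for Cd3d and chr2:150570165-150570414 (plus) for Cst7.
Ptcra: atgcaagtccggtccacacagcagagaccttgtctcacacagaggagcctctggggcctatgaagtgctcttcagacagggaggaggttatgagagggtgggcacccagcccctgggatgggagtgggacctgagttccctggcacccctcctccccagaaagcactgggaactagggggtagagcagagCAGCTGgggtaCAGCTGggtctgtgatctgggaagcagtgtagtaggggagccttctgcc
Cpa3: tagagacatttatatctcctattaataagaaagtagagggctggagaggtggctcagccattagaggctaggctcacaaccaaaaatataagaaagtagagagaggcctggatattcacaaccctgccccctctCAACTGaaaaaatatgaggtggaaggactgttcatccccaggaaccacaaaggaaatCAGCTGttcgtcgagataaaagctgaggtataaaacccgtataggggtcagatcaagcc
Cd3d: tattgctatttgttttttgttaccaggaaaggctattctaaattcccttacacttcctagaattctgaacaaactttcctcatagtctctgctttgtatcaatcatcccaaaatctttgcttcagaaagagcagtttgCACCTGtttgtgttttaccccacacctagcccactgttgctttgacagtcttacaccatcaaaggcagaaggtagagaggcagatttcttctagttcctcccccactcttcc
Cst7: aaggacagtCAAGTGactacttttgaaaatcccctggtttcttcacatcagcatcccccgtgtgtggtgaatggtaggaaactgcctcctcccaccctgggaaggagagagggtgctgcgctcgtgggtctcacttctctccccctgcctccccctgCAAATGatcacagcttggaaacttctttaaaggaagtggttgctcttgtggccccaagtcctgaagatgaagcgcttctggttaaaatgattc
Ptcra, Cpa3 and Cst7 had 2 E-boxes each and Cd3d had 1, while the stretch before Dtx1, a Notch target described below, was searched as well and had 0. An E-box was found on either strand in 66.2% of the 32851 promoters of this length in the RefSeq table, so that its presence does not set these genes apart. The core letters bound by the Notch partner CSL, TGGGAA or TTCCCA on the other strand, were found 2 times before Ptcra, 1 time before Cst7 and not before Cpa3, Cd3d or Dtx1, and in 21.6% of all promoters. None of these matches says that a factor was bound.

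Over all members, Ptcra was found in 293 members (57.8%), Rag1 in 199 (39.3%) and Rag2 in 165 (32.5%). Only 20 members held all 3, while 182 held Ptcra without Rag1 or Rag2, 214 held Rag1 or Rag2 without Ptcra, and 111 held Ptcra with at least 1 of the Rag genes. The share with Ptcra was 65.6%, 55.3% and 57.4% from the first to the third run. The share with Rag1 was 33.3%, 27.5% and 61.1%, highest in the third run with its deeper cells, whereas the share with Rag2 was 22.2%, 38.8% and 28.4%. Ptcra was thus the most often found in the first and second run and Rag1 in the third.

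Many members met the rule on few molecules. A single UMI of Rag1, Rag2 and Ptcra together was found in 287 members (56.6%), and a single UMI of Cpa3 in 261 (51.5%). In 121 members (23.9%) both rested on 1 UMI, and in 80 (15.8%) both rested on at least 2. With these numbers the level of free RNA matters. A baseline was read from cells with at least 1 UMI each of Trac, Nkg7 and Il2rb, called mature here. They were taken to be innate-like lymphocytes that should lack both sides of the rule. Of these 19, 1417 and 1046 cells in the 3 runs, 21.1%, 8.96% and 8.32% had a UMI of Cpa3 and 26.3%, 5.72% and 6.88% one of Rag1, Rag2 or Ptcra, at median depths of 5792, 2860 and 6301.5 UMIs. At least 2 UMIs were held by 2 of 4, 67 of 127 and 42 of 87 of those with Cpa3. For Rag1, Rag2 and Ptcra together this was 4 of 5, 32 of 81 and 37 of 72. A UMI of Il2ra was found in 42.1%, 10.9% and 12.2% of the mature cells. Whether the mature cells held free RNA, were doublets or included immature thymocytes was not tested. In the third run, 299 cells had at least 2 UMIs of Cd79a and 1 of Ms4a1. Of those, 6.69% had a UMI of Cpa3 and 9.70% one of Rag1, Rag2 or Ptcra. Cells that passed the exclusions are called resting here, for their lack of Mki67 and Top2a. Before thinning, Cpa3 was found in 12.8%, 34.0% and 19.1% of the resting Il2ra+ cells with Rag1, Rag2 or Ptcra. The median depths of these cells were 3344, 4787 and 7190 UMIs. In the third run, where the depths were closest, the exact intervals were 16.5 to 21.9% in these cells and 6.72 to 10.2% in the mature cells, and were apart.

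To compare the shares at 1 depth, every cell was thinned to 2000 UMIs. In the second run, Cpa3 was then found in 15.8% (12.5 to 19.6) of resting Il2ra+ cells with Rag1, Rag2 or Ptcra, against 5.01% (3.93 to 6.28) of the mature cells. In the third run it was found in 4.83% (3.39 to 6.65) against 3.35% (2.34 to 4.62), and these intervals overlap, so that the thinned data do not set the shares apart. In the first run it was found in 7.19% (5.03 to 9.90), against 10.5% (1.30 to 33.1) of only 19 mature cells. Read the other way, a UMI of Rag1, Rag2 or Ptcra was found in 19.7% (14.0 to 26.4), 11.7% (9.18 to 14.5) and 13.8% (9.79 to 18.6) of resting Il2ra+ Cpa3+ cells in the 3 runs, against 21.1% (6.05 to 45.6), 3.03% (2.20 to 4.07) and 2.77% (1.86 to 3.96) of the mature cells. In the second and the third run, resting Il2ra+ Cpa3+ cells thus held Rag or Ptcra transcripts more often than the mature cells did. For the first run too few mature cells were available. The mature cells were chosen before thinning and the resting cells after it, and the source of the transcripts was not tested. All these intervals cover counting error only.

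**Figure D1:**
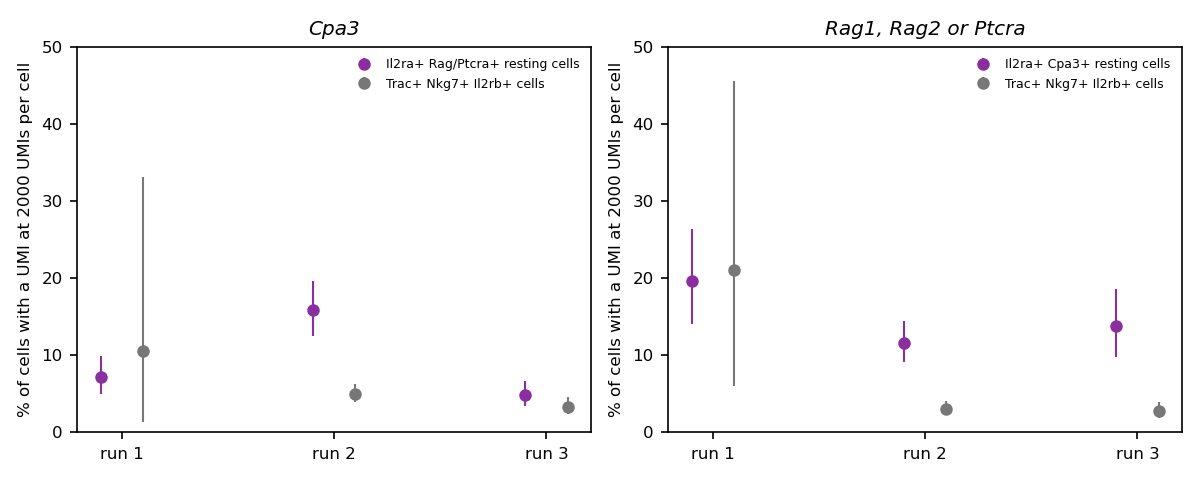
Share of cells with a UMI of Cpa3 (left) and of Rag1, Rag2 or Ptcra (right) in each run after thinning to 2000 UMIs per cell, in percent, with exact 95% intervals. Purple points are resting Il2ra+ cells that meet the rest of the rule and grey points are mature Trac+ Nkg7+ Il2rb+ cells. The purple and grey intervals are apart in the second run for both and in the third run for Rag1, Rag2 or Ptcra only.

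The levels of the rule's genes are given in CPM, which divides the UMIs of a gene by all UMIs of the population in that run and multiplies by 1e6. Cpa3 was at 371, 481 and 289.7 CPM in the members and at 617, 723 and 516 CPM in Rag- and Ptcra-negative cells, so that the members were lower in every run although 1 UMI was required of both. Ptcra was at 293, 178 and 153 CPM in the members and at 515, 409 and 340.5 CPM in Cpa3-negative cells. Rag1 was at 96.0, 60.1 and 193 CPM against 196, 156 and 446 CPM, which again put the members lower in every run. For Rag2 the members were lower in the first and the third run, at 55.6 and 34.9 CPM against 70.1 and 44.2, and higher in the second, at 74.5 against 65.4. Il2ra was at 594, 459.8 and 568 CPM in members, above the 525, 400.1 and 469.9 CPM in Rag- and Ptcra-negative cells. These genes chose the cells, so their levels are a description and not a result. A required UMI also weighs more in CPM in a shallower cell. The median depths of Cpa3-negative cells were 3262, 4509 and 6952.5 UMIs, below the 3946.5, 5430 and 8563 UMIs of members.

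The stage given by the name was checked on genes outside the rule. Kit, the stem cell factor receptor that marks DN2 cells, was at 12.6, 30.1 and 34.2 CPM in members, against 27.5, 30.7 and 59.4 CPM in Rag- and Ptcra-negative cells and 5.39, 14.3 and 16 CPM in Cpa3-negative cells. The transcript of Cd44 was scarce, at 5.05 to 6.83 CPM, and Flt3 was found in 0 of 507 members, which allows a share of up to 0.592% of cells with a UMI. The defining mast cell and basophil genes Fcer1a, Ms4a2, Gata2, Tpsab1, Mcpt8, Cma1 and Mcpt4 were all at 0 in the members, which allows up to 0.888 CPM over the 3 runs, and Hdc was at most 2.05 CPM. The Cpa3 in these cells was thus not accompanied by the defining genes of mast cells at a level that this depth could show. The check does not by itself set DN2b cells apart from DN2a cells. As given below, Kit and the commitment gene Bcl11b did not pass between members and Rag- and Ptcra-negative cells, while Notch3 was higher in members. The sequence of stages in time was not measured, and the name is kept for cells defined by the rule.

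The members differed from Rag- and Ptcra-negative cells in the CD3 genes, in Notch genes and in a group of progenitor genes. Cd3d, Cd3g, Cd3e, Dtx1 and Notch3 were higher in members, and Plac8, Igfbp4, Lyl1, Cst7 and the TCRγ constant gene Tcrg-C1 were lower. Counts were summed by run and population, and compared by edgeR's quasi-likelihood test with the run as a block, since the populations of 1 run share a library. At an adjusted p-value under 0.05, 177 of 9812 genes (1.8%) differed, with 93 higher in members (0.948%) and 84 lower (0.856%). Without the third run only 38 genes differed, and without the block none did (128 genes at an unadjusted p under 0.05). With only the members that held Rag1 or Rag2 and no Ptcra, 10 genes differed. Of the calls of single named genes, 38 were then lost and 6 remained. With only the members that held Ptcra, 313 genes differed. Most of the named calls were thus not made on the members without Ptcra. Single genes that lose their call without a run are named as such. The median difference over all genes was 0.00015 on the log2 scale.

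The CD3 genes form a cluster on chromosome 9, where Cd3g and Cd3d are read in opposite directions from starts that lie 1355 bases apart. Their products carry the signal of the pre-TCR and of both kinds of TCR into the cell. Cd3d (chr9:44981786-44987339 in GRCm38) was at 320.3, 149 and 224 CPM in Rag- and Ptcra-negative cells, at 988, 429 and 757 CPM in members and at 1427, 1326 and 1737 CPM in Cpa3-negative cells. The members were higher than the former and lower than the latter in every run, without overlap. Cd3d was higher than in Rag- and Ptcra-negative cells by 1.66 ± 0.12 (log2 difference ± SE, adjusted p = 1.78e-09). Some 71.1%, 57.3% and 85.8% of members had a UMI of Cd3d, compared with 41.1%, 33.8% and 55.2% of Rag- and Ptcra-negative cells.

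Cd3g (chr9:44969572-44980431) was at 2689, 2516 and 2172 CPM in members and at 2201, 1556 and 1186 CPM in Rag- and Ptcra-negative cells, a difference of 0.62 ± 0.08 (adjusted p = 2.03e-05). Cd3e (chr9:44998740-45009627) was at 687, 763 and 593 CPM against 456, 498 and 358 CPM, a difference of 0.65 ± 0.08 (adjusted p = 1.71e-05). The 3 genes thus rose together, with the largest difference in Cd3d. All 3 calls remained when any single run was left out, but those of Cd3d and Cd3e were lost when only members with Rag1 or Rag2 and no Ptcra were compared, and that of Cd3g was lost by DESeq2.

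The genes of the receptor chains did not rise with CD3. Tcrg-C1 fell by 0.43 ± 0.06 on the log2 scale (adjusted p = 5.22e-05) from 2440.4, 2992 and 1073 CPM in Rag- and Ptcra-negative cells to 1516, 2511 and 806 CPM in members. Tcrg-C2 and Tcrg-C4 were also called lower. The call of Tcrg-C2 was lost without the first (adjusted p = 0.277) or the third run (adjusted p = 0.329), and that of Tcrg-C4 without the second (adjusted p = 0.0762) or the third (adjusted p = 0.0769). Some of the TCRγ constant genes are close copies of each other, so that reads may be split between those. Trbc1, a TCRβ constant gene, and Trdc, the TCRδ constant gene, did not pass, at −0.17 (adjusted p = 0.166) and −0.18 (adjusted p = 0.427). Over the 10 tested genes of the pre-TCR, CD3 and constant genes, 3 were higher and 3 lower, with a median of −0.13.

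Of the 8 tested Notch receptors and targets, 3 were higher in members and none was lower, with a median of 0.17. Dtx1 (chr5:120680202-120711927), which encodes an E3 ligase and is a target of NOTCH1, was at 50.5, 16.4 and 40.2 CPM in members against 14.5, 3.39 and 8.14 CPM in Rag- and Ptcra-negative cells (2.21 ± 0.28, adjusted p = 1.77e-05). Notch3 (chr17:32120820-32166852) was at 53.1, 34.8 and 73.7 CPM against 30.4, 14.3 and 27.8 CPM (1.25 ± 0.18, adjusted p = 8.42e-05). Both were higher in members in each of the 3 runs. Notch1 (chr2:26457903-26516663), the receptor that acts in early thymocytes, was at 268, 146 and 373 CPM against 177, 111 and 244 CPM (0.53 ± 0.08, adjusted p = 0.000299), and its adjusted p was 0.0585 without the third run. Hes1, another well-known Notch target, was at 344, 466 and 245 CPM against 323, 442 and 248 CPM and did not pass (0.05, adjusted p = 0.93). The higher Notch genes were therefore not accompanied by Hes1.

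**Figure D2:**
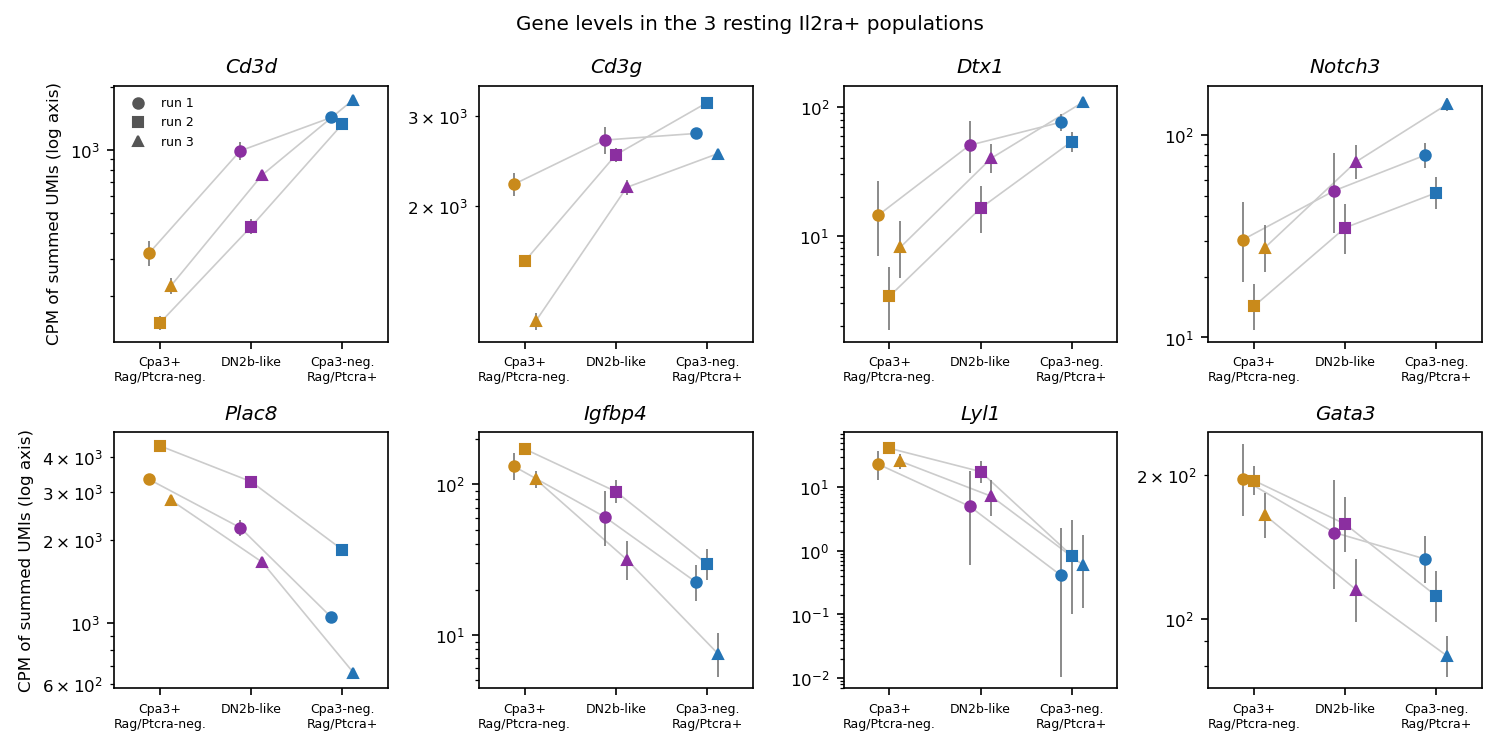
Levels of 8 genes in CPM of summed UMIs, on a log axis, in Il2ra+ Cpa3+ cells without Rag or Ptcra (ochre), DN2b-like cells (purple) and Cpa3-negative cells (blue). Circles, squares and triangles are the first, second and the third run, grey lines join the populations of a run and bars are exact 95% intervals of counting error. Members lay between the others in every run for Cd3d, Cd3g, Dtx1, Notch3, Plac8, Igfbp4, Lyl1 and Gata3.

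Of the 18 tested factors of the T lineage, 1 was higher in members than in Rag- and Ptcra-negative cells and 1 was lower, with a median of 0.05. Bcl11b, the factor of T lineage commitment, was at 685, 483 and 914 CPM in members and at 645, 426 and 846 CPM in Rag- and Ptcra-negative cells (0.13, adjusted p = 0.459), and Tcf7, the gene of TCF-1, differed by 0.01 (adjusted p = 0.999). Gata3, which acts from the earliest stages, was at 152, 158 and 115 CPM against 196, 194 and 165 CPM and fell by 0.38 ± 0.09 on the log2 scale (adjusted p = 0.0268). This call was lost without the second (adjusted p = 0.111) or the third run (adjusted p = 0.385). The gene that was higher was Hivep3 (0.97, adjusted p = 0.0127), with an adjusted p of 0.786 without the third run. Of the 6 tested E proteins and Id inhibitors, only Tcf12, the gene of HEB, passed (0.37 ± 0.09, adjusted p = 0.0182), and not without the third run (adjusted p = 0.751).

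Of the 11 tested recombination genes other than Rag1 and Rag2, none passed in either direction, and the median was 0.05. Dntt, whose product adds bases at the joints of receptor genes, was at 1642, 1949 and 1657 CPM in members and at 1807, 1831 and 1479 CPM in Rag- and Ptcra-negative cells (0.05, adjusted p = 0.845). Of 15 genes of proximal receptor signaling, 1 passed. It was Lck, the kinase that acts just below CD3, at 1322, 894 and 729 CPM against 1101, 745 and 448 CPM (0.41 ± 0.08, adjusted p = 0.00203), and without the third run its adjusted p was 0.0839.

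Some progenitor genes were lower in members. Of the 18 tested progenitor and sorting surface genes, 2 were higher and 3 lower, with a median of −0.27. Of the 11 tested stem and progenitor factors, 2 were lower in members and none higher, with a median of −0.38. Lyl1 (chr8), a basic helix-loop-helix factor of stem cells and early progenitors, was at 5.05, 17.8 and 7.24 CPM in members and at 23.2, 41.4 and 25.9 CPM in Rag- and Ptcra-negative cells, and it fell by 1.48 ± 0.23 on the log2 scale (adjusted p = 0.000248). Nfe2, better known from megakaryocytes, was lower at 32.8, 40.3 and 31.6 CPM against 65.2, 61.2 and 50.3 CPM (−0.67, adjusted p = 0.0194), but its call was lost whichever run was left out, with adjusted p-values of 0.0791, 0.116 and 0.2 without the first, the second and the third run. Kit was not called (−0.48, adjusted p = 0.365).

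Plac8 (chr5:100553725-100572245), which is known from early progenitors, was at 2219, 3257 and 1664 CPM in members against 3320.1, 4390.4 and 2792 CPM in Rag- and Ptcra-negative cells and fell by 0.59 ± 0.08 on the log2 scale (adjusted p = 2.44e-05). Igfbp4 (chr11:99041244-99054392), the gene of a binding protein of insulin-like growth factors, was at 60.6, 89.5 and 31.6 CPM against 132, 172 and 108 CPM and fell by 1.21 ± 0.16 (adjusted p = 2.29e-05). Both were lower in members in all 3 runs, and leaving out any single run kept both calls. Cst7 (chr2:150570415-150578944), which encodes the protease inhibitor cystatin F, was at 32.8, 32.8 and 19.1 CPM against 50.7, 61.4 and 46.5 CPM (−0.98 ± 0.18, adjusted p = 0.00196, and 0.0528 without the third run). Among 8 tested mast cell-type and innate genes, 4 were lower and none higher, with a median of −0.78.

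H19 (chr7:142575529-142578143), an imprinted long non-coding RNA, had the largest rise among the named genes that were higher in members in every run. It was at 32.8, 9.56 and 85.6 CPM in members and at 8.70, 5.32 and 7.66 CPM in Rag- and Ptcra-negative cells (2.5 ± 0.28, adjusted p = 3.99e-06). The third run held the highest level, and without it the difference was 1.21 with an adjusted p of 0.292. Pld4 (chr12:112760655-112768990), a member of the phospholipase D family, was at 111, 67.6 and 71.1 CPM against 34.8, 26.4 and 10.5 CPM (1.79 ± 0.18, adjusted p = 9.2e-07), and Arl5c, a small GTPase of the ARF family, was at 93.5, 66.3 and 120.5 CPM against 43.5, 33.9 and 33.5 CPM (1.32, adjusted p = 4.45e-06). These 2 genes were higher in members in each run and kept their calls without any single run. Ctla4, the gene of an inhibitory receptor of T cells, was at 48.0, 28.7 and 47.4 CPM in members against 23.2, 15.2 and 10.5 CPM (1.39, adjusted p = 0.00114, and 0.196 without the third run).

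Among the named genes, the largest falls were in genes of few UMIs. Ifitm1, an interferon-induced gene, was at 0, 4.78 and 5.93 CPM in members, or 0, 7 and 9 UMIs, against 14.5, 25.2 and 22.0 CPM in Rag- and Ptcra-negative cells (−2.26 ± 0.38, adjusted p = 0.000525), and its call remained without any single run. Tyrobp, which encodes the signaling adaptor DAP12 of innate cells, was at 0, 8.20 and 9.22 CPM against 2.90, 25.2 and 54.1 CPM (−2.12 ± 0.38, adjusted p = 0.0014, and 0.136 without the third run). Both were lower in members in each run.

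Since Mki67 and Top2a were used to leave out cycling cells, other proliferation genes were looked at. None of the 20 tested DNA replication genes passed between members and Rag- and Ptcra-negative cells, with a median of −0.15 and 19 of 20 below 0, and none of the 14 tested mitosis genes, with a median of 0.25 and 13 of 14 above 0, or of the 14 G1 cyclins and inhibitors passed. Against Cpa3-negative cells, 17 of 20 replication genes (median 0.13) and 13 of 14 mitosis genes (median 0.47) were above 0, and 1 of each was called higher, Mcm3 and Ccnb2. Neither was higher in every run, and the call of Mcm3 was lost without the second or the third run and that of Ccnb2 without the first or the second. The summed level of the mitosis list was 551, 299 and 128 CPM in members, 341, 224 and 135 CPM in Rag- and Ptcra-negative cells and 355, 156 and 122 CPM in Cpa3-negative cells. It was highest in the members in the first and second run, and not in the third. In all other cells within the limits, the mitosis list was at 2249, 1697 and 1085 CPM. The replication list was at 1905, 2499 and 1195 CPM in members and at 4854, 3114 and 2451 CPM in all other cells. The name resting thus stands for the exclusions and not for an absence of replication transcripts.

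Against the Cpa3-negative cells, which held Rag or Ptcra as the members did, the members had less Cd3d, Cd3e, Dtx1 and Notch3 and more Plac8, Igfbp4 and Cst7. The 2 comparisons share the members, so their values are set side by side and their likeness is not a result. Here 401 of 9812 genes (4.09%) differed by edgeR's quasi-likelihood test, with 240 higher in members (2.45%) and 161 lower (1.64%), and the median of all genes was −0.02. Without the second run 191 genes differed, without the third 168, and without the block none did (195 at an unadjusted p under 0.05). Cd3d was lower in members by a log2 difference of −1.18 ± 0.11 (adjusted p = 3.33e-08), and Cd3e, at 687, 763 and 593 CPM against 762, 1195 and 892 CPM, by −0.52 ± 0.08 (adjusted p = 4.4e-05). Cd3g did not pass (−0.24 ± 0.08, adjusted p = 0.0901).

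Of the 8 Notch genes, 3 were lower than in Cpa3-negative cells and none higher, with a median of −0.35. Dtx1 was at 76.3, 54.0 and 109 CPM in Cpa3-negative cells (−1.38 ± 0.17, adjusted p = 2.77e-06). Notch3 was at 79.6, 51.9 and 142 CPM (−0.82 ± 0.14, adjusted p = 0.000227, and 0.166 without the third run), and Notch1 at 327, 195 and 518 CPM (−0.45 ± 0.08, adjusted p = 0.000416). In all 3 genes the members lay between the other populations in every run.

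Of the 18 T lineage factors, 3 were higher and 4 lower in members than in Cpa3-negative cells, with a median of 0.04. Runx3, a Runt family factor of innate and cytotoxic lymphocytes, was at 73.3, 56.0 and 147 CPM in members and at 34.8, 35.9 and 63.2 CPM in Cpa3-negative cells (1.0 ± 0.14, adjusted p = 1.47e-05). Lef1, the gene of a relative of TCF-1 that acts around β-selection, was at 116, 30.7 and 98.1 CPM against 176, 63.7 and 183 CPM (−0.89 ± 0.13, adjusted p = 6.19e-05). Spib, an ETS factor, was at 2.53, 4.10 and 6.58 CPM against 18.2, 16.5 and 21.1 CPM (−1.94 ± 0.31, adjusted p = 0.000122). Gata3 was higher in members by 0.37 ± 0.10 (adjusted p = 0.0244), but not without the second (adjusted p = 0.428) or the third run (adjusted p = 0.195). Bcl11b did not pass here either (−0.11, adjusted p = 0.403).

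Some progenitor genes were higher in members. Of the 11 stem and progenitor factors, 4 were higher in members than in Cpa3-negative cells and none lower (median 0.51), and of 18 progenitor and sorting surface genes, 4 were higher and 1 lower (median 0.35). Plac8 was at 1049.5, 1845 and 662 CPM in Cpa3-negative cells (1.03 ± 0.08, adjusted p = 7.01e-10). Igfbp4 was at 22.4, 29.5 and 7.49 CPM (1.68 ± 0.21, adjusted p = 3.92e-06), and Cst7 at 6.22, 7.17 and 2.43 CPM (2.44 ± 0.27, adjusted p = 5.67e-07). All 3 were higher in members in every run. Kit was higher by 1.13 ± 0.23 (adjusted p = 0.00231, and 0.0568 without the third run). Lyl1 was down to 1, 2 and 3 UMIs in the Cpa3-negative cells of the 3 runs, against 2, 26 and 11 UMIs in members, so that no fold is given. The other factors called were Nfe2, Spi1 and Hhex, of which Spi1 lost its call without the second (adjusted p = 0.11) or the third run (adjusted p = 0.0574) and Hhex without the third (adjusted p = 0.249).

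Genes of the receptor chains were higher in members than in Cpa3-negative cells. Tcrg-C1 was at 967, 1555 and 459 CPM in Cpa3-negative cells, so that members were higher by 0.69 ± 0.06 (adjusted p = 1.05e-08). Trdc was at 713, 788 and 433 CPM in members against 439, 529 and 250.2 CPM (0.65 ± 0.08, adjusted p = 2.12e-06), and Trbc1 was higher by 0.44 ± 0.06 (adjusted p = 4.93e-06). Transcripts of these constant regions can be made before rearrangement, and the counts do not tell a rearranged from an unrearranged gene. Of the 10 tested pre-TCR, CD3 and constant genes, 5 were higher and 2 lower, with a median of 0.16.

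Among other genes higher in members than in Cpa3-negative cells were Vim, Klf2 and Bcl2. Vim, the gene of the intermediate filament vimentin, was at 131, 177 and 161 CPM in members against 44.8, 61.6 and 56.7 CPM (1.49 ± 0.09, adjusted p = 1.7e-11). Klf2, a factor that controls lymphocyte trafficking, was at 109, 235 and 32.9 CPM against 18.7, 81.0 and 22.9 CPM (1.45 ± 0.19, adjusted p = 9.16e-06). Vim was also lower in members than in Rag- and Ptcra-negative cells, where it was at 185, 242 and 216 CPM (−0.44 ± 0.08, adjusted p = 0.00181), whereas Klf2 (adjusted p = 0.346) did not pass there. Bcl2, the survival gene, was at 510.4, 321 and 346 CPM in members against 304, 255 and 219 CPM in Cpa3-negative cells (0.55, adjusted p = 0.00024), and was the only one of 8 tested survival and death genes to pass, with a median of −0.05 over them and 5 of 8 below 0.

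**Figure D3:**
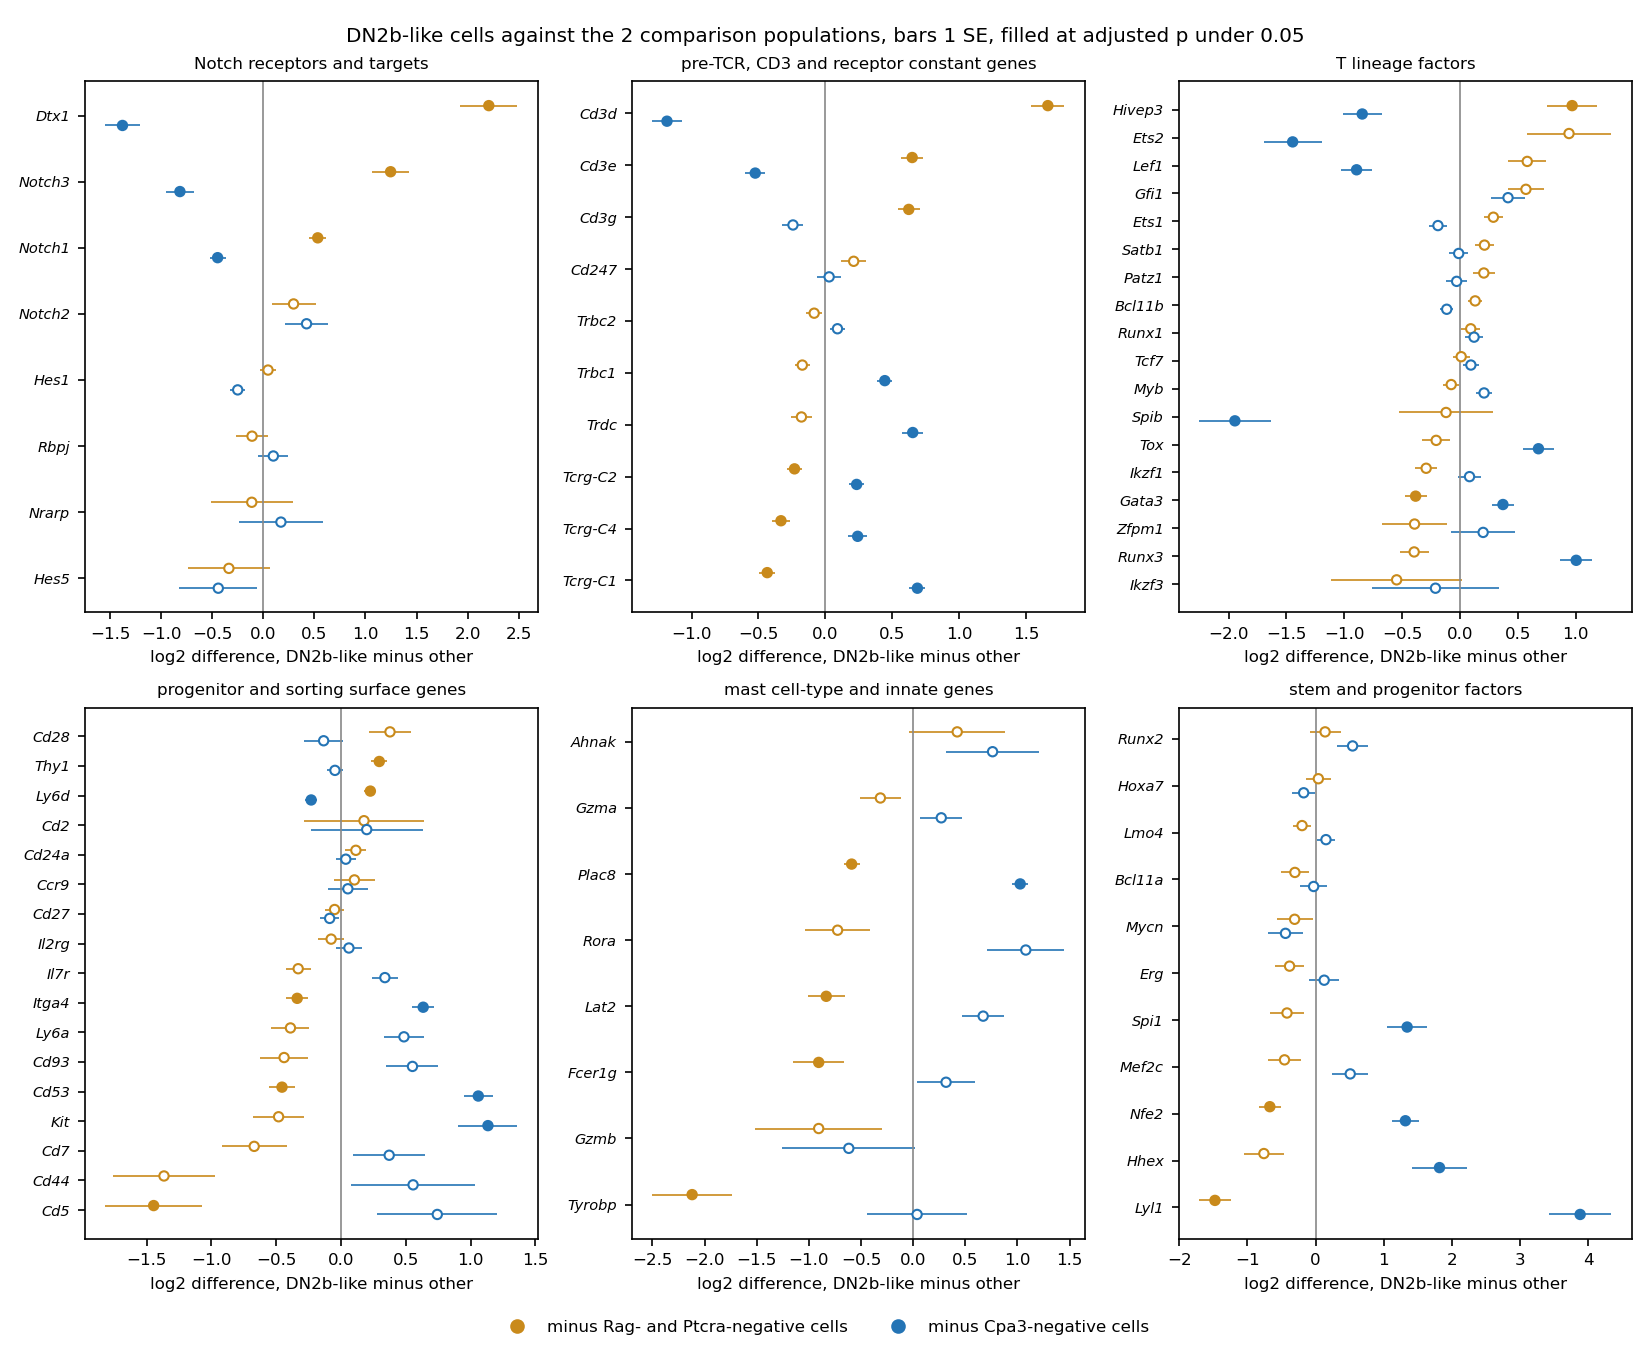
Log2 difference of DN2b-like cells minus Rag- and Ptcra-negative cells (ochre) and minus Cpa3-negative cells (blue) for tested genes of 6 lists, with bars of 1 SE and filled points for an adjusted p under 0.05 by edgeR's quasi-likelihood test. For Cd3d, Dtx1 and Notch3 the ochre points lie right of 0 and the blue points left of it, and for Plac8 and Lyl1 the order is the reverse.

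The place of the members was counted over genes chosen on the difference between the comparison populations. That difference came from the fit that also held the members. The cells that served to choose the genes also gave the levels at both ends, which can set the ends further apart. Of the 399 genes that differed between Rag- and Ptcra-negative cells and Cpa3-negative cells by at least 2-fold, the level in members lay between both for 254 (63.7%), 321 (80.5%) and 343 (86.0%) genes, respectively, from the first to the third run. The first run had the fewest members. These are shares of genes in 1 library each and are given without a test. A population equal to either of the others would also lie between them in some genes through counting error, and that share was not measured.

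Such a place between others can come from cells that are each in between or from a mixture of cells, and the single cells were therefore placed as well. For each cell, the UMIs of 100 genes were counted, 50 higher in Cpa3-negative and 50 higher in Rag- and Ptcra-negative cells and none from the rule, and the share on the Cpa3-negative side was taken. The median was 58.7%, 46.3% and 59.2% in members of the first, second and the third run, against 43.4%, 37.3% and 44.8% in Rag- and Ptcra-negative cells and 71.5%, 63.1% and 77.2% in Cpa3-negative cells. In every run the members' median lay between the others. Of the members, 66.7%, 65.5% and 66.0% lay between the medians of the other populations. The shares of 48.9%, 49.3% and 50.2% in Rag- and Ptcra-negative cells and 48.3%, 48.5% and 49.1% in Cpa3-negative cells are no yardstick for this. Each of those populations is cut at its own median, which caps its share. The comparison cells also served to choose the 100 genes.

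The spread of the members on this measure was not the same in every run. The SD over members was 12.5, 12.2 and 15.5 percentage points, against 10.9, 9.08 and 10.4 in Rag- and Ptcra-negative cells and 11.7, 12.5 and 9.50 in Cpa3-negative cells. In the first and the third run the SD of the members was above that of either of the others. In the second run it was below that of Cpa3-negative cells. The members were also split by their counts of the rule's genes. Those genes define the populations that set the measure, so that the order of the sets is a description and supports nothing further. In the third run the 63 members with 1 UMI of Cpa3 and at least 2 of Rag1, Rag2 and Ptcra had a median of 75%, close to the 77.2% of Cpa3-negative cells. The 47 members with at least 2 UMIs of Cpa3 and 1 of Rag1, Rag2 and Ptcra had a median of 47.0%, close to the 44.8% of Rag- and Ptcra-negative cells. The 29 members with at least 2 of both stood at 54.5%, between these. In the second run the same 3 sets stood at 56.8%, 40.8% and 48.1%, and in the first at 66.9%, 56.7% and 58.9%, in the same order but on 13 to 27 cells each in the first run. Whether a given member with single UMIs held those transcripts itself or took them up as free RNA was not tested.

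**Figure D4:**
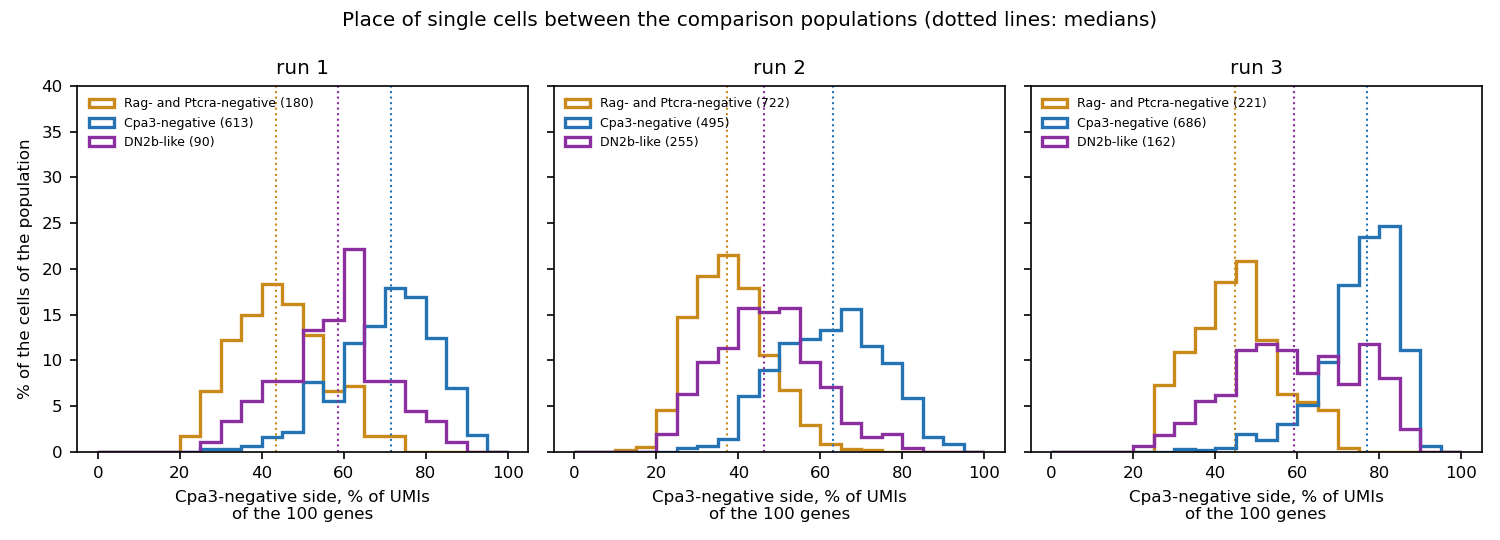
Share of the UMIs of 100 genes that fell on the 50 genes higher in Cpa3-negative cells, in percent, for single cells of Rag- and Ptcra-negative (ochre), DN2b-like (purple) and Cpa3-negative (blue) cells, as a percentage of each population in bins of 5 points, with dotted lines at the medians. In each run the purple median stands between the others, at 58.7%, 46.3% and 59.2%. By SD the purple cells are the most spread in the first and the third run.

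Members with Ptcra were then compared with members that held Rag1 or Rag2 and no Ptcra, a comparison added after the data had been seen. There were 59, 141 and 93 members of the first kind in the 3 runs and 31, 114 and 69 of the second. Of the first kind, 17, 37 and 57 also held Rag1 or Rag2, so the comparison is not of Ptcra alone against Rag alone. Members with Ptcra had more Cd3d, Dtx1, Notch3 and Lef1, and members with Rag alone had more Plac8, Ctla2a, Vim and Ly6a. By edgeR's quasi-likelihood test, 53 of 8239 genes (0.643%) differed, 36 higher with Ptcra (0.437%) and 17 lower (0.206%), with a median of 0.01 over all genes. Only 8 genes differed without the third run, 36 without the second, and none without the block (125 at an unadjusted p under 0.05).

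Cd3d was at 1183, 639.8 and 1104 CPM in members with Ptcra and at 545, 181 and 332 CPM in members with Rag alone (1.66 ± 0.14, adjusted p = 3.31e-11), and its call remained without any single run. Dtx1 was at 58.2, 26.6 and 64.5 CPM against 33.1, 4.46 and 10.3 CPM (2.31 ± 0.38, adjusted p = 0.000334). Notch3 was at 61.9, 41.7 and 104 CPM against 33.1, 26.8 and 36.7 CPM (1.17 ± 0.25, adjusted p = 0.00827), and Lef1 at 131, 31.6 and 145 CPM against 82.6, 29.7 and 41.1 CPM (1.20 ± 0.26, adjusted p = 0.00838). Each of the 4 was higher with Ptcra in every run, but for Dtx1, Notch3 and Lef1 the adjusted p was 0.391, 0.893 and 0.926 without the third run.

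On the other side, Plac8 was at 2118, 2683 and 1242 CPM with Ptcra and at 2446, 3931 and 2183 CPM with Rag alone (−0.55 ± 0.09, adjusted p = 0.000334). Ctla2a, which encodes an inhibitor of cysteine proteases, was at 160.2, 316 and 321 CPM against 289, 508 and 502 CPM (−0.68 ± 0.10, adjusted p = 6.96e-05). The calls of both remained without any single run. Vim was at 120.1, 162 and 104 CPM against 157, 195 and 232 CPM (−0.65, adjusted p = 0.00811, and 0.893 without the third run). Ly6a, the gene of SCA-1, was at 32.8, 36.7 and 28.7 CPM against 41.3, 92.1 and 68.9 CPM (−1.21 ± 0.23, adjusted p = 0.00312), and its adjusted p was 0.212 and 0.118 without the second and the third run. On the measure over 100 genes, members with Ptcra alone had medians of 59.4%, 50.2% and 55.3%, members with Rag alone 54.5%, 41.0% and 49.7%, and members with both 62.4%, 52.7% and 75.9%.

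**Figure D5:**
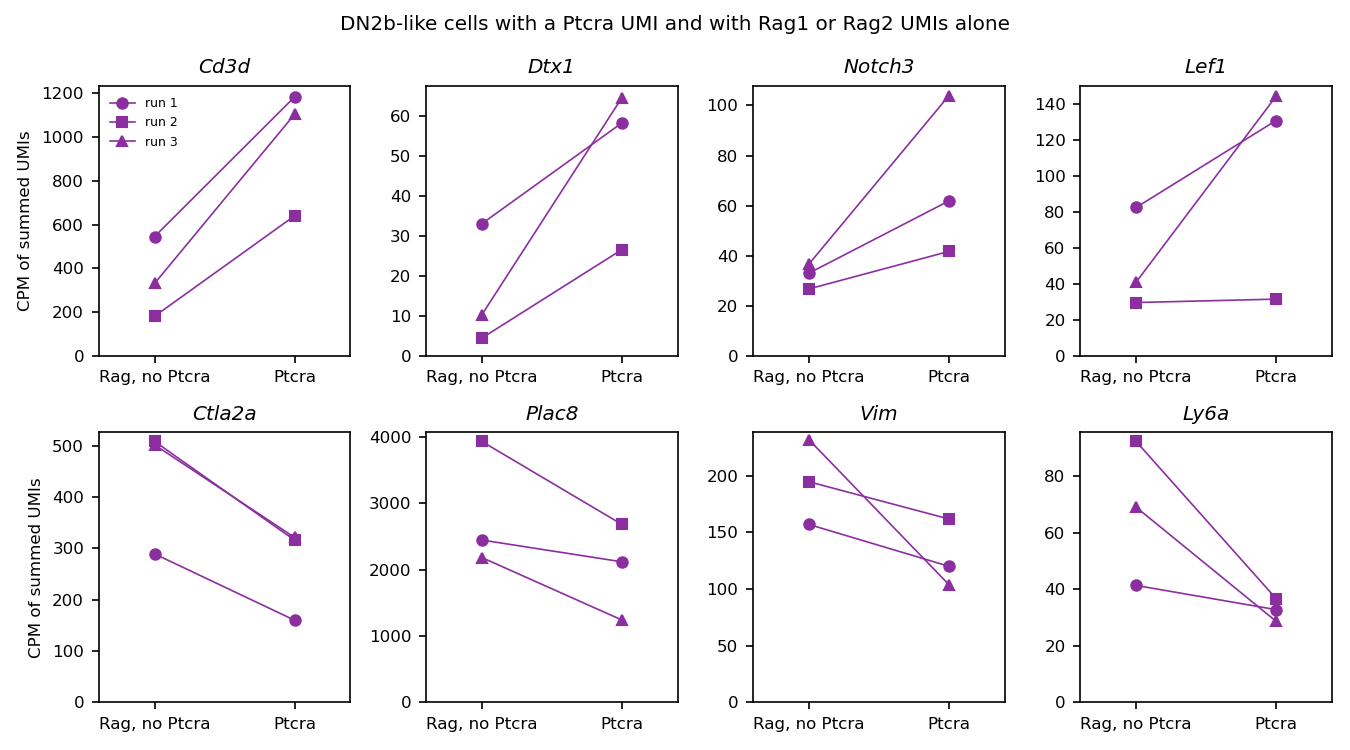
Levels of 8 genes in CPM of summed UMIs in DN2b-like cells with Rag1 or Rag2 and no Ptcra and in those with Ptcra. Circles, squares and triangles are the first, second and the third run, joined by lines. Cd3d, Dtx1, Notch3 and Lef1 are higher with Ptcra in each run, and Ctla2a, Plac8, Vim and Ly6a are lower.

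Markers of other cells were looked at in the same sums. The list of B cell markers summed to 0, 0.683 and 271 CPM in members of the 3 runs, to 0.968 to 16.3 CPM in Rag- and Ptcra-negative cells and to 4.15 to 90.7 CPM in Cpa3-negative cells. In the third run 4 of the 162 members held at least 50 UMIs of Cd74, the invariant chain of MHC class II, and 4 held Ms4a1, the gene of CD20. Cd74 and Cd79a were called higher in members than in Rag- and Ptcra-negative cells by edgeR's quasi-likelihood test (adjusted p = 2.29e-05 and 3.31e-05). The median of their log2 differences was 3.63, above the difference of H19. In the first and second run, however, the members held 0 and 1 UMI of Cd74 and none of Cd79a. Leaving out every cell with Cd79a, Ms4a1, Maf, Etv5 or Ccl5 gave 138 genes between members and Rag- and Ptcra-negative cells and 438 between members and Cpa3-negative cells.

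The γδ markers summed to 793, 844 and 520.1 CPM in members, 945, 848 and 772 CPM in Rag- and Ptcra-negative cells and 476, 559 and 299 CPM in Cpa3-negative cells, most of it from Trdc. Of 6 tested, Maf and Etv5 were lower in members than in Rag- and Ptcra-negative cells, but neither call remained without the third run (adjusted p = 0.900 and 0.934), and that of Etv5 was also lost without the first (adjusted p = 0.104). Natural killer and innate lymphoid markers summed to 298 to 389 CPM in members, and nearly all of this was Nkg7, which was at 298, 355 and 289 CPM in members, 452, 439 and 368 CPM in Rag- and Ptcra-negative cells and 179, 234 and 152 CPM in Cpa3-negative cells. Epcam, the only detected member of the stromal and epithelial markers, was at 93.5, 68.3 and 94.8 CPM in members against 40.6, 39.4 and 29.7 CPM in Rag- and Ptcra-negative cells (1.15, adjusted p = 8.4e-05), while the keratins Krt5 and Krt8, Col1a1 and Foxn1 were at 0 in the members.

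Doublets were not removed. The caller marked only 1 cell of the first run, so its calls were not used in any run, and the number of doublets was not measured. The paper describes the removal of likely doublets with DoubletFinder, and those calls were not used here. Among the highest 8% of doublet scores in a run were 5.56%, 7.45% and 7.41% of the members, 5.0%, 4.43% and 3.17% of Rag- and Ptcra-negative cells and 4.89%, 2.42% and 3.79% of Cpa3-negative cells. The share was highest in members in every run, on 5, 19 and 12 members. Without those cells, 161 genes differed between members and Rag- and Ptcra-negative cells and 383 between members and Cpa3-negative cells. The part of doublets in single genes was not tested.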

How the data were processed

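Single thymocytes of 3 libraries were profiled on the 10x platform. For each cell that Cell Ranger called, the authors deposited UMI counts per gene on mm10, whole numbers without normalization, and without a filter on genes or mitochondrial counts. Its version, from a file header, was 4.0.0 for the third run and is not settled in the sources used here for the others. The submitters' notes also name R 3.6.3 and Seurat 2.3, neither of which bears on these counts. Total counts were 39947415, 52797915 and 98533329 UMIs, over 28692, 28692 and 32285 genes, of which 27734 were in all 3 runs. CPM refers to the latter, and 1.14%, 0.703% and 0.659% of the UMIs lay outside them.

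Members, comparison populations and gene lists were chosen with earlier results of these data known. Cells are not replicates, so UMIs were summed per run and population, giving 9 sums. They were tested in edgeR 4.0.16 (limma 3.58.1, R 4.3.3) with TMM factors, filterByExpr at a minimum count of 10, run as a block and the quasi-likelihood F test, two-sided, with Benjamini-Hochberg adjustment over all genes tested and a threshold of 0.05. The fit had 4 residual degrees of freedom, 9817 genes past the filter and a median dispersion of 0.00343. The test also borrows spread from the other genes, with 23.0 prior degrees of freedom, so the p-values rest on both. The 10 genes of the rule were not tested. The block follows from the shared library of the populations of a run. The script was tested on simulated data. The populations were chosen on counts of the same cells, so that a test shows which other genes go with the genes of the rule.

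The named genes were the 10 with the largest difference in each direction among those called, with the same direction in every run and at least 20 CPM in the higher population, genes of the lists, and the genes of the rule. Genes named for the comparison within the members, the calls of single genes lost without a run, and the 4 upstream sequences were chosen after the values had been seen. DESeq2 1.42.0 and Scrublet in scanpy 1.11.5 were used for alternatives. Shares carry exact 95% intervals of counting error. Gene positions are from GENCODE vM21 on GRCm38. A gene of the lists that was tested is not reported here and is not drawn.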

Additional observations from a re-analysis of the deposited data

How the results depend on the processing

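Between members and Rag- and Ptcra-negative cells, 177 genes differed. DESeq2 gave 71 (63.4% of them higher in members, against 52.5%), the rule after thinning 20, cells of 4000 to 10000 UMIs 84, at least 2 UMIs of Rag1, Rag2 and Ptcra 334, at least 2 of these and of Cpa3 50, members with Ptcra 313, members with Rag alone 10, and comparison cells without the exclusions 1451. Leaving out 1 run gave 38 to 147. Against Cpa3-negative cells, 401 genes became 146 by DESeq2 (72.6% higher, against 59.9%), 87 after thinning, 162 at 4000 to 10000 UMIs, 98 with at least 2 UMIs of Rag1, Rag2 and Ptcra and 202 with at least 2 of these and of Cpa3, and 168 to 342 with 1 run left out. Within the members, 53 became 32 by DESeq2, 89 without the filter, and 8 to 62 with 1 run left out. Without the replicate block every comparison gave 0 genes. Some alternatives hold fewer cells or genes, and otherwise the cause was not tested.

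The 507 members became 138 after thinning, 220 with at least 2 UMIs of Rag1, Rag2 and Ptcra and 80 with at least 2 of both. Their share of resting Il2ra+ Cpa3+ cells was then 19.7%, 11.7% and 13.8%, then 18.2%, 10.9% and 29.4%, and then 10.9%, 6.47% and 14.6%.

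Of 1860 values of single named genes under the alternatives, 1329 kept their call and direction, 523 lost the call and 8 reversed. Reversed against Rag- and Ptcra-negative cells were Cd74 (−4.44) and Tcf12 (−0.051) after thinning, and Tcrg-C2 (0.085) and Tcrg-C4 (0.13) with comparison cells without the exclusions. Reversed against Cpa3-negative cells were Cd74 by DESeq2 (−1.03) and after thinning (−6.78), Xrcc6 after thinning (0.026) and Tcrg-C4 with at least 2 UMIs of both (−0.056). The rule with at least 2 UMIs of Cpa3, the removal of cells with markers of other types and the comparison within the members were added after seeing the data. The first run had the fewest members, 90, and the fewest UMIs per member. DESeq2's size factors in edgeR moved the median of all genes by less than 0.1 on the log2 scale.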
